A study of Rattus norvegicus with 12 samples.

Results

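The genes described here are 41 rat genes of the heat shock response and the unfolded protein response, chosen by symbol: 15 cytosolic chaperones and their regulators, 3 mitochondrial chaperones and 23 genes of the endoplasmic reticulum. A probe was matched to 39 of them, against 15715 genes with a matched probe on the whole array, and all 39 were tested, against 11211 genes tested in all. The cytosolic cochaperone Dnajb1 and the mitochondrial Hsp70 Hspa9 had no matched probe. Where several probes matched a gene, the brightest was taken. All 39 were well above background on 12 of 12 arrays except Ern1, which was so on 10.

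The samples were left ventricles of male Sprague-Dawley rats, measured on 12 single-colour expression arrays. The 4 groups compared had 3 arrays each: low sodium with angiotensin II (AngII), low sodium, normal sodium with AngII, and normal sodium. Every group, the uninfused normal sodium group included, was fed 60% fructose for 8 weeks. The diet held either 0.64% NaCl or less than 0.01% NaCl, and AngII was delivered under the skin at 200 ng/kg/min during the last 4 weeks. No group on a fructose-free diet was analysed here, so every difference below is a difference between fructose-fed animals. The labels do not say whether each array held 1 animal or a pool, and p-values therefore measure the spread between these arrays.

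Chaperones of the cytosol bind unfolded protein and are raised as a set when the factor Hsf1 is activated. The endoplasmic reticulum has its own response, in which the sensors Ern1 (Ire1), Eif2ak3 (Perk) and Atf6 detect unfolded protein in the lumen and act through the factors Xbp1, Atf4 and cleaved Atf6 on folding enzymes, on degradation genes and, under lasting stress, on Ddit3 (Chop) and Trib3. In heart muscle the small heat shock proteins, Cryab and Hspb6 among them, are abundant and protect contractile and cytoskeletal proteins, and the endoplasmic reticulum response is known from pressure overload and ischaemia.

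The elements through which these factors act could be read in the promoters of the members, and 5 promoters are shown because their genes carry the differences described below or are standard reporters of the response. RefSeq (assembly GRCr8) gave the 250 bases before the annotated start for 34 of the 41 genes. The 5 motifs searched on both strands were the endoplasmic reticulum stress response element ERSE (CCAAT, then 9 bases, then CCACG), ERSE-II (ATTGG, then 1 base, then CCACG), the core TGACGTGG bound by Atf6 and Xbp1, a heat shock element HSE of 3 units (GAA and TTC in turn, with 2 bases between them), and an Atf4 composite site (TGATGNAA). Capitals mark the matches, which in Hyou1 overlap between the core and ERSE-II. A match is a run of letters and not evidence of binding.
Xbp1: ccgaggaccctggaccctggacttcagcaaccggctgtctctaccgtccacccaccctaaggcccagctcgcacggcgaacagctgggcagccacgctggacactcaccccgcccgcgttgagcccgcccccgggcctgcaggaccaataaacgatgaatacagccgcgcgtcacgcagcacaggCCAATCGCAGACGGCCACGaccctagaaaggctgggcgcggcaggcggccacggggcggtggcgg
Hyou1: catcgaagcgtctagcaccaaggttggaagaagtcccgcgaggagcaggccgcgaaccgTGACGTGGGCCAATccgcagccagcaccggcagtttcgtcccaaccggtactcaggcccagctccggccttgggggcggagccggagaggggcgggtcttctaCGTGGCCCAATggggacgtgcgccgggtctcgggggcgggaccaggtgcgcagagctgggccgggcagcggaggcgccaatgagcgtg
Hspa5: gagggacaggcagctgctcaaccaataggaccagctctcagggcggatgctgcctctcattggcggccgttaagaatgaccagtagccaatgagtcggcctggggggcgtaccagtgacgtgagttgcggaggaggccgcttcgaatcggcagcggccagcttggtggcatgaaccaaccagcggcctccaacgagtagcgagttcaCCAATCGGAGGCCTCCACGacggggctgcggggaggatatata
Hsph1: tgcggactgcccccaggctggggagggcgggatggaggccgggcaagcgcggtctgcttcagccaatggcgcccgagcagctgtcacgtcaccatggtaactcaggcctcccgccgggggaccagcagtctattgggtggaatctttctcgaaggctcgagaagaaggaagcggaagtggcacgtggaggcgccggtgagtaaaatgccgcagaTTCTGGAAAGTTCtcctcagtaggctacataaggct
Trib3: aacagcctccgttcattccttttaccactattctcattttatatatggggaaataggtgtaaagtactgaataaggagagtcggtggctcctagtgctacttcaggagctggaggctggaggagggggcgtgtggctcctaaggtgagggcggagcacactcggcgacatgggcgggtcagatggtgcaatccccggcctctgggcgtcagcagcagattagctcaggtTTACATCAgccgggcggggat

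These stretches lie at chr14:84604373-84604622, plus strand for Xbp1, chr8:53602632-53602881, plus strand for Hyou1, chr3:38452766-38453015, plus strand for Hspa5, chr12:10427118-10427367, plus strand for Hsph1, and chr3:161275534-161275783, minus strand for Trib3. ERSE was found in 7 of 19 endoplasmic reticulum promoters, 36.8%, against 21 of all 27457 promoters, 0.0765%. Its carriers were Hspa5, Hsp90b1, Dnajc3, Calr, Canx, Creld2 and Xbp1. ERSE-II was found in Hyou1 and Herpud1, 10.5% of endoplasmic reticulum promoters, against 0.0437% of all promoters. The HSE of 3 units was found in Hspa8 and Hsph1 and in the mitochondrial pair Hspd1 and Hspe1, against 0.597% of all promoters. Hspd1 and Hspe1 are divergent neighbours whose windows overlap, so their matches are the same bases read from either side. The Atf4 composite letters were in Herpud1, Trib3 and Hspa9, against 3.27% of all promoters. The core was in Hyou1 and Bag3, against 0.550% of all promoters. No element of these 5 was found within the window in the other members searched, which include Hspb6, Hspa2 and Edem1.

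**Figure D1:**
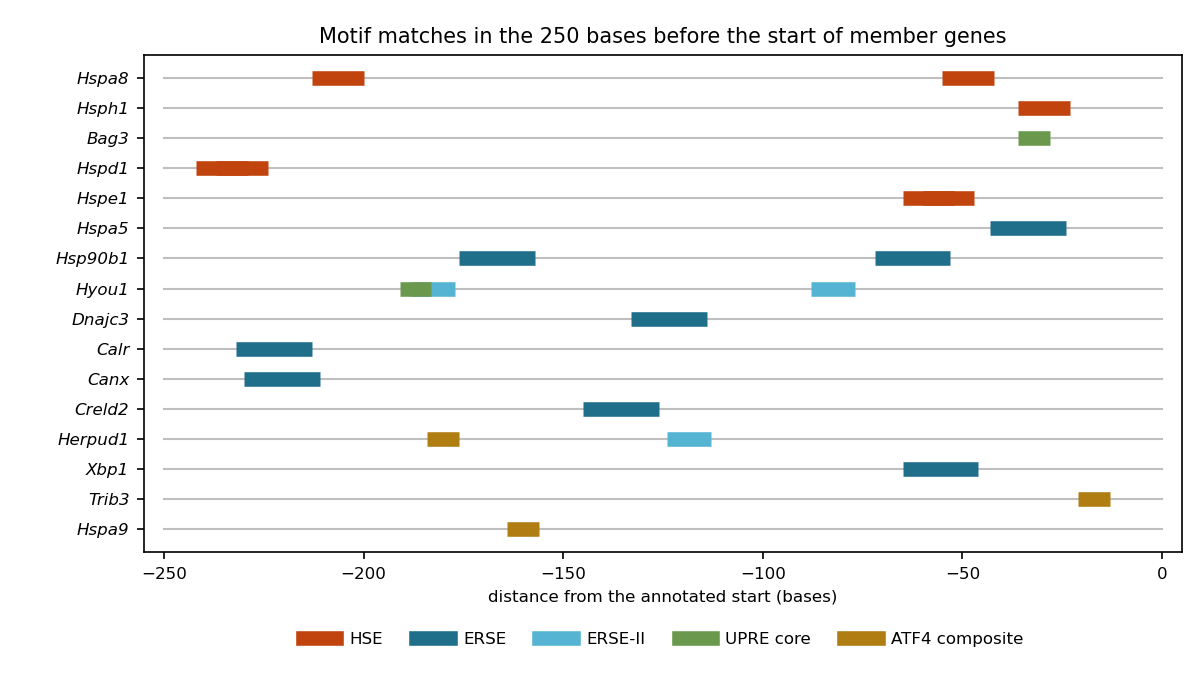
Position of motif matches (coloured blocks) in the 250 bases before the annotated start (0 on the horizontal axis, in bases) for the 16 of 34 member promoters with a match. Every endoplasmic reticulum carrier of ERSE or ERSE-II stands in the lower rows, and HSE matches stand in the cytosolic and mitochondrial rows at the top.

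Levels below are log2 signal minus the array's 75th percentile, and a difference of 1 is a 2-fold difference in signal. No member, and no probe of 20020 tested, had an adjusted p under 0.05 in any of the 7 contrasts (0% of probes in each; limma with Benjamini-Hochberg adjustment over all probes). No difference is therefore called, and the values that follow are descriptions with an unadjusted limma p given as a ranking. The half-width of the 95% interval for AngII on normal sodium lay between 0.22 and 0.81 over the members, with a median of 0.34. Differences smaller than a member's own half-width could not be told from 0. In whole ventricle, fewer cells of a type and less RNA per cell cannot be told apart. The arrays resembled each other in quality, with 70.2% to 81.0% of spots well above background. The array of normal sodium replicate 1 stood apart, with 88 spots called non-uniform where no other array had more than 3, and with the lowest limma array weight (0.279). Each replicate number was 1 slide that held 1 array of every group, and every slide held the groups in 1 order, so position and group cannot be told apart.

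**Figure D2:**
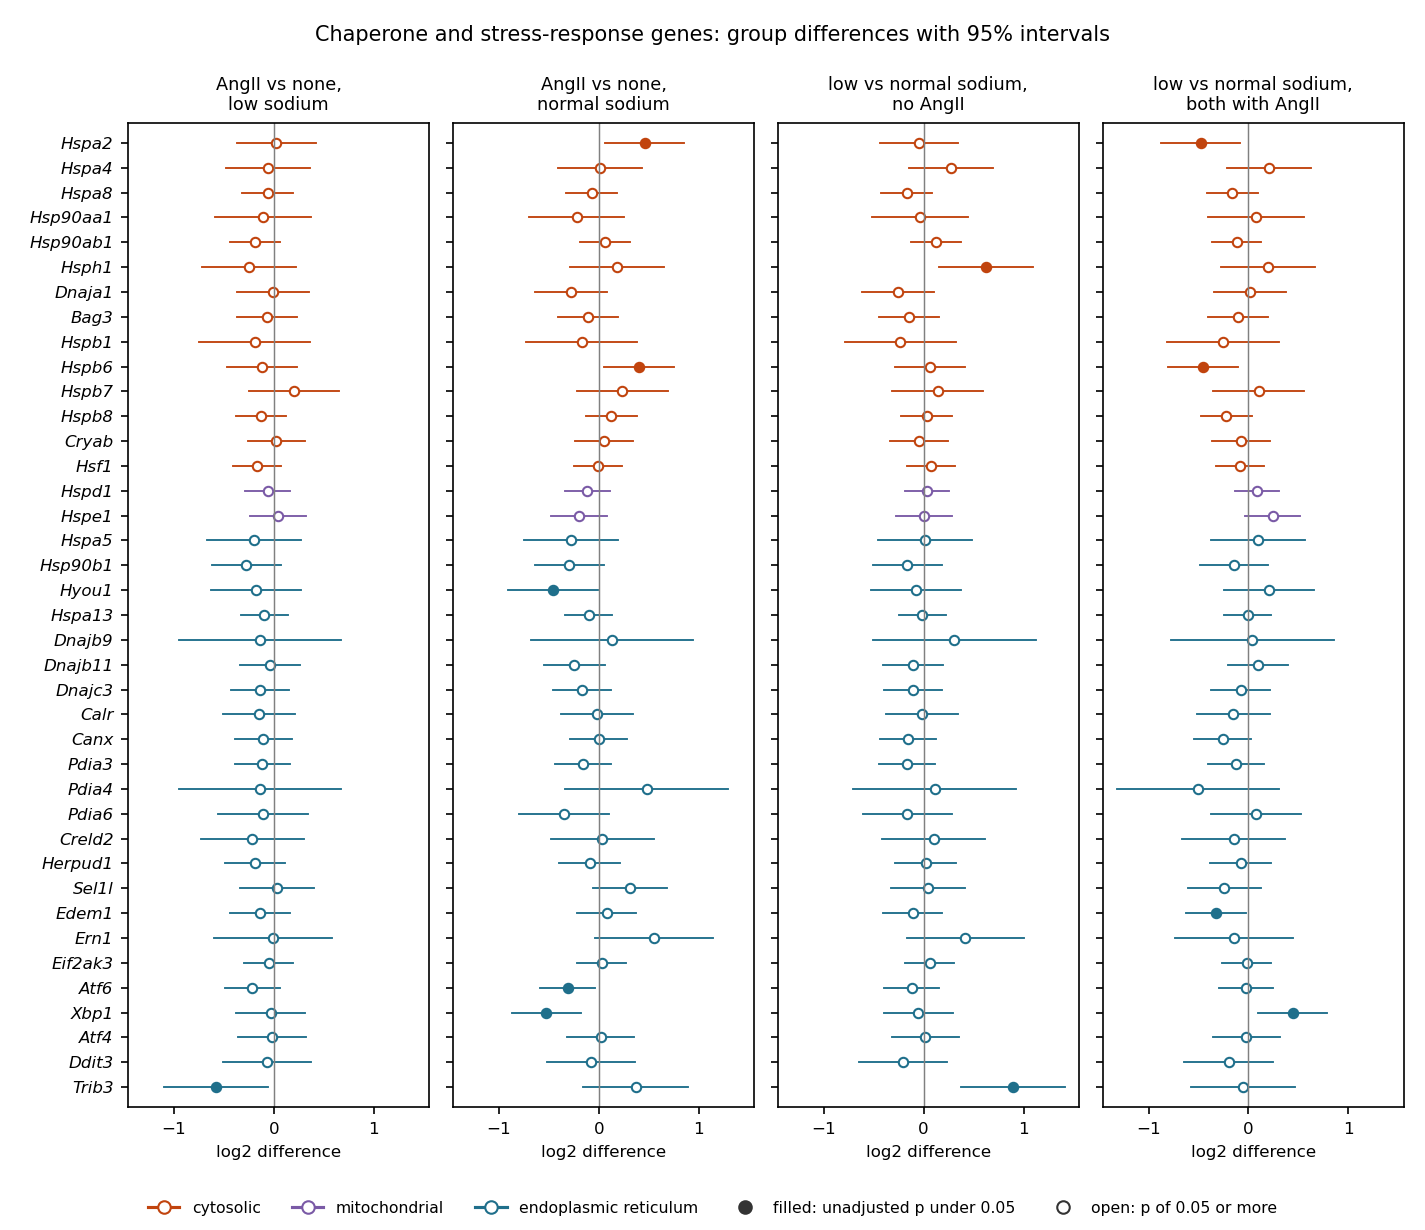
Log2 difference (horizontal axis) with its 95% interval for each of the 39 genes (rows, coloured by compartment) in the 4 pairwise contrasts. Filled points have an unadjusted limma p under 0.05, and none has an adjusted p under 0.05. In the AngII contrast on low sodium 22 of 23 endoplasmic reticulum points lie left of 0, each by less than its interval except Trib3.

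Under AngII on low sodium the endoplasmic reticulum members lay below their uninfused level almost without exception, by small amounts. The difference was below 0 for 22 of 23 of them (all but Sel1l) with a median of -0.14, against 55.0% of all probes below 0 and a median of -0.02. The cytosolic genes were below 0 in 11 of 14 with a median of -0.09. Genes of the same pathways outside the members were less even in this contrast. Of 23 tested endoplasmic reticulum genes 15 lay below 0 and 8 above, with a median of -0.09. Of 25 tested cytosolic chaperone genes 15 lay below 0 and 10 above, with a median of -0.02. A downward tendency of heat shock genes in this contrast was known before these genes were chosen and is not independent support. Across the 19 alternative settings the count of endoplasmic reticulum members stayed between 19 and 22 of 23 and their median between -0.19 and -0.10. The count was 16, 19 and 19 of 23 within slides 1, 2 and 3. A single member, Trib3, had an unadjusted p under 0.05, lower, where 0.829% of all probes were lower and 0.879% higher at that threshold. That count was 5 with array weights and 0 to 2 with single arrays left out. Groups did not overlap, lower in the infused arrays, for 7 members (Hsp90ab1, Hspb8, Hsf1, Hsp90b1, Dnajc3, Creld2 and Trib3), against 3.04% of all probes. No member was without overlap in the higher direction, against 3.08% of probes.

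On normal sodium the members lay on both sides of 0 under AngII. Endoplasmic reticulum genes were below 0 in 14 of 23 with a median of -0.08, cytosolic genes in 6 of 14 with a median of 0.03, and 45.8% of all probes were below 0. The cytosolic median minus the endoplasmic reticulum median was 0.11 on normal sodium and 0.05 on low sodium. It was -0.02 for low against normal sodium under AngII and 0.01 without it. Within slides the normal sodium value was 0.32 on slide 2 and -0.10 on slide 3, so the difference between compartments did not keep its direction. The endoplasmic reticulum median on normal sodium was -0.02 without normal sodium replicate 2, against -0.08 with all arrays. Over the 19 alternatives it lay between -0.17 and 0.03, with 11 to 17 of 23 genes below 0. Within slides 1, 2 and 3 it was -0.17, -0.27 and 0.09, with 15, 15 and 5 of 23 genes below 0. Members with an unadjusted p under 0.05 were Hspa2 and Hspb6, higher, against 4.24% of all probes, and Hyou1, Atf6 and Xbp1, lower, against 3.02% of all probes. Groups did not overlap for Hspb6, Hspb7, Sel1l and Ern1 in the higher direction, against 7.46% of probes, and for Hspe1, Atf6 and Xbp1 in the lower direction, against 5.55%.

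**Figure D3:**
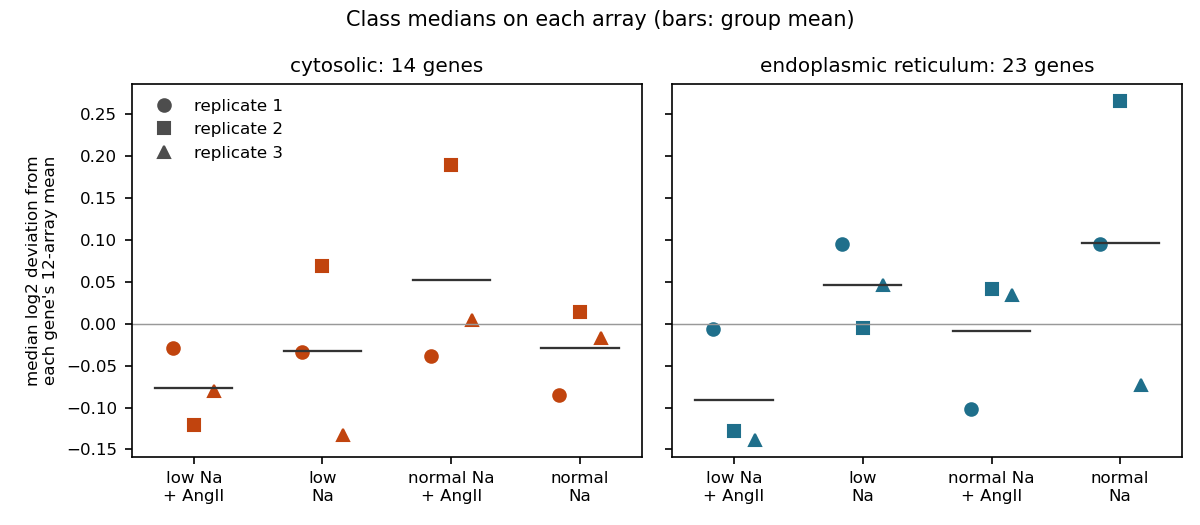
Median over the genes of a class of the log2 deviation from each gene's mean over 12 arrays (vertical axis), one point per array, with a bar at the group mean. The endoplasmic reticulum median of normal sodium replicate 2 stands at 0.27, above the other 11 arrays. The 3 arrays of low sodium with AngII stand between -0.14 and -0.01. Over all probes tested, replicate 3 of low sodium with AngII stood at -0.10.

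Normal sodium replicate 2 carried much of the spread of the endoplasmic reticulum genes. It was the highest of 12 arrays for 11 of 23 of them, 47.8%, against 9.22% of all probes. Its endoplasmic reticulum median stood at 0.27, against 0.10 and -0.07 on the other normal sodium arrays. Normal sodium replicate 1 was far below the others for some genes: Pdia4, a protein disulphide isomerase, stood at -4.40 there, against -2.65 and -3.22 on the other normal sodium arrays. Dnajb9, a cochaperone of Hspa5, stood at -1.40 there, against 0.46 and -0.36. For AngII on normal sodium, 21 of 39 members moved by over 1.5 times or changed sign without normal sodium replicate 1, with 10 changes of sign. Without replicate 2 the number was 24, with 2 changes of sign, and without replicate 3 it was 22, with 3. For low sodium without AngII the numbers were 25, 25 and 26, with 11, 6 and 5 changes of sign. Many of these differences are close to 0, and values without an array are given below for the members described at most length.

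Xbp1, the factor spliced by Ern1 that activates folding and degradation genes, gave the smallest p of any member for AngII on normal sodium. Its level was 0.63, 0.71 and 0.82 in low sodium with AngII, 0.85, 0.86 and 0.54 in low sodium, 0.21, 0.18 and 0.45 in normal sodium with AngII, and 0.80, 1.08 and 0.53 in normal sodium. The 3 arrays of normal sodium with AngII were the lowest of the 12, and they did not overlap any other group. The difference was -0.53 ± 0.16 (SE), 1.44-fold lower (limma, adjusted p = 0.669), and it was negative on all 3 slides, at -0.58, -0.91 and -0.09. On low sodium the AngII difference was -0.03, with a 95% interval from -0.37 to 0.31. Low sodium with AngII lay above normal sodium with AngII by 0.44 (adjusted p = 0.364). That contrast shares the normal sodium AngII arrays with the first, so the values are not independent. The difference between the 2 AngII effects was 0.49, and with slide as a block its unadjusted p was no longer under 0.05. Without normal sodium replicate 2 the normal sodium difference was -0.39. Spliced and unspliced Xbp1 were not told apart.

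For AngII on normal sodium, the sensors and the factors of the Perk branch gave smaller differences than Xbp1, apart from the dim Ern1. Atf6, the sensor that is itself cleaved to a transcription factor, stood at -1.59, -1.85 and -1.75 in low sodium with AngII, -1.42, -1.48 and -1.63 in low sodium, -1.66, -1.74 and -1.70 in normal sodium with AngII, and -1.17, -1.46 and -1.53 in normal sodium. The infused arrays lay below the uninfused ones on normal sodium, with no overlap. The AngII difference was -0.31 on normal sodium (adjusted p = 0.669), -0.22 on low sodium, and -0.26 over both diets (adjusted p = 1.00). Without normal sodium replicate 1 the normal sodium difference was -0.20. A second, dimmer Atf6 probe went the other way on normal sodium, at 0.10, and with the mean of both probes the difference was -0.11.

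Ern1, the endonuclease that splices Xbp1, was dim. It stood at -5.20, -6.23 and -6.02 in low sodium with AngII, -5.74, -6.07 and -5.61 in low sodium, -5.35, -5.82 and -5.84 in normal sodium with AngII, and -6.01, -6.54 and -6.12 in normal sodium. Its AngII difference on normal sodium was 0.55, with a 95% interval from -0.04 to 1.14, the opposite sign to that of Xbp1. Over the 19 alternatives that Ern1 difference lay between -0.08 and 0.66, and it changed sign in 1 of them. Eif2ak3, the sensor kinase that phosphorylates eIF2 alpha, lay between -0.05 and 0.06 in the 4 pairwise contrasts. Atf4, the factor translated when eIF2 alpha is phosphorylated, lay between -0.02 and 0.02. Ddit3, the factor Chop that Atf4 raises, lay between -0.21 and -0.07.

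Trib3, a pseudokinase that Atf4 and Chop are known to raise, showed the largest single difference of any member in the 4 pairwise contrasts, between the diets without AngII. Its level was -3.95, -4.19 and -4.43 in low sodium with AngII, -3.56, -3.90 and -3.38 in low sodium, -4.32, -4.06 and -4.05 in normal sodium with AngII, and -4.32, -5.06 and -4.14 in normal sodium. The 3 low sodium arrays were the highest of the 12, and overlapped no other group. Low sodium lay above normal sodium without AngII by 0.89 ± 0.24 (SE), 1.86-fold (limma, adjusted p = 0.577), and by 0.62 without normal sodium replicate 2. Low sodium with AngII lay below low sodium by 0.58, 1.49-fold (adjusted p = 1.00). Under AngII the diets differed by -0.05, with a 95% interval from -0.57 to 0.47. The interaction, the low sodium AngII effect less the normal sodium one, was -0.95 ± 0.33 (SE, adjusted p = 0.857), and it was negative on all 3 slides. Trib3 kept an unadjusted limma p under 0.05 in 19 of 19 alternatives for the low sodium effect without AngII and for the difference of effects. Hsph1 did so in 18 for the former, and Xbp1 in 7 and Hspb6 in 6 for the latter. For AngII on normal sodium the number was 19 for Xbp1, 14 for Atf6 and for Hspb6, 12 for Hspa2 and 6 for Hyou1.

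The chaperones of the lumen gave small AngII differences, with both signs present on normal sodium. Hspa5 (BiP), the central Hsp70 of the endoplasmic reticulum, stood at 4.06, 3.90 and 3.80 in low sodium with AngII, 4.20, 3.99 and 4.18 in low sodium, 3.67, 3.70 and 4.11 in normal sodium with AngII, and 4.01, 4.61 and 3.70 in normal sodium. Its groups overlapped on both diets. Hsp90b1 (Grp94), the Hsp90 of the same compartment, stood at 1.65, 1.50 and 1.54 in low sodium with AngII, 1.87, 1.78 and 1.87 in low sodium, 1.62, 1.82 and 1.69 in normal sodium with AngII, and 2.28, 2.11 and 1.62 in normal sodium. All infused low sodium arrays lay below all uninfused low sodium arrays. Averaged over both diets the AngII difference of Hsp90b1 was -0.29 ± 0.11 (SE), 1.22-fold lower (adjusted p = 1.00), and it was negative on all 3 slides.

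Hyou1 (Grp170), which exchanges nucleotide on Hspa5, stood at 2.04, 1.99 and 1.84 in low sodium with AngII, 2.25, 2.19 and 1.97 in low sodium, 1.71, 1.55 and 1.99 in normal sodium with AngII, and 2.23, 2.63 and 1.75 in normal sodium. Its groups overlapped on both diets. The AngII difference was -0.46 on normal sodium (adjusted p = 0.669) and -0.24 without normal sodium replicate 2. It was -0.52, -1.08 and 0.23 on slides 1, 2 and 3. Over both diets it was -0.32. At that averaged contrast Hsp90b1, Hyou1, Atf6 and Xbp1 had an unadjusted p under 0.05, lower, against 1.06% of all probes. No member was higher at that threshold, against 1.82% of probes. The endoplasmic reticulum genes were below 0 in 20 of 23 with a median of -0.10. Of all probes 49.8% were below 0, with a median of 0.0006. Without normal sodium replicate 2 the genes were below 0 in 17 of 23 with a median of -0.07. By slide the count was 17, 16 and 16 of 23 on slides 1, 2 and 3. The averaged contrast holds the low sodium arrays already counted above, so it is not a separate result.

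**Figure D4:**
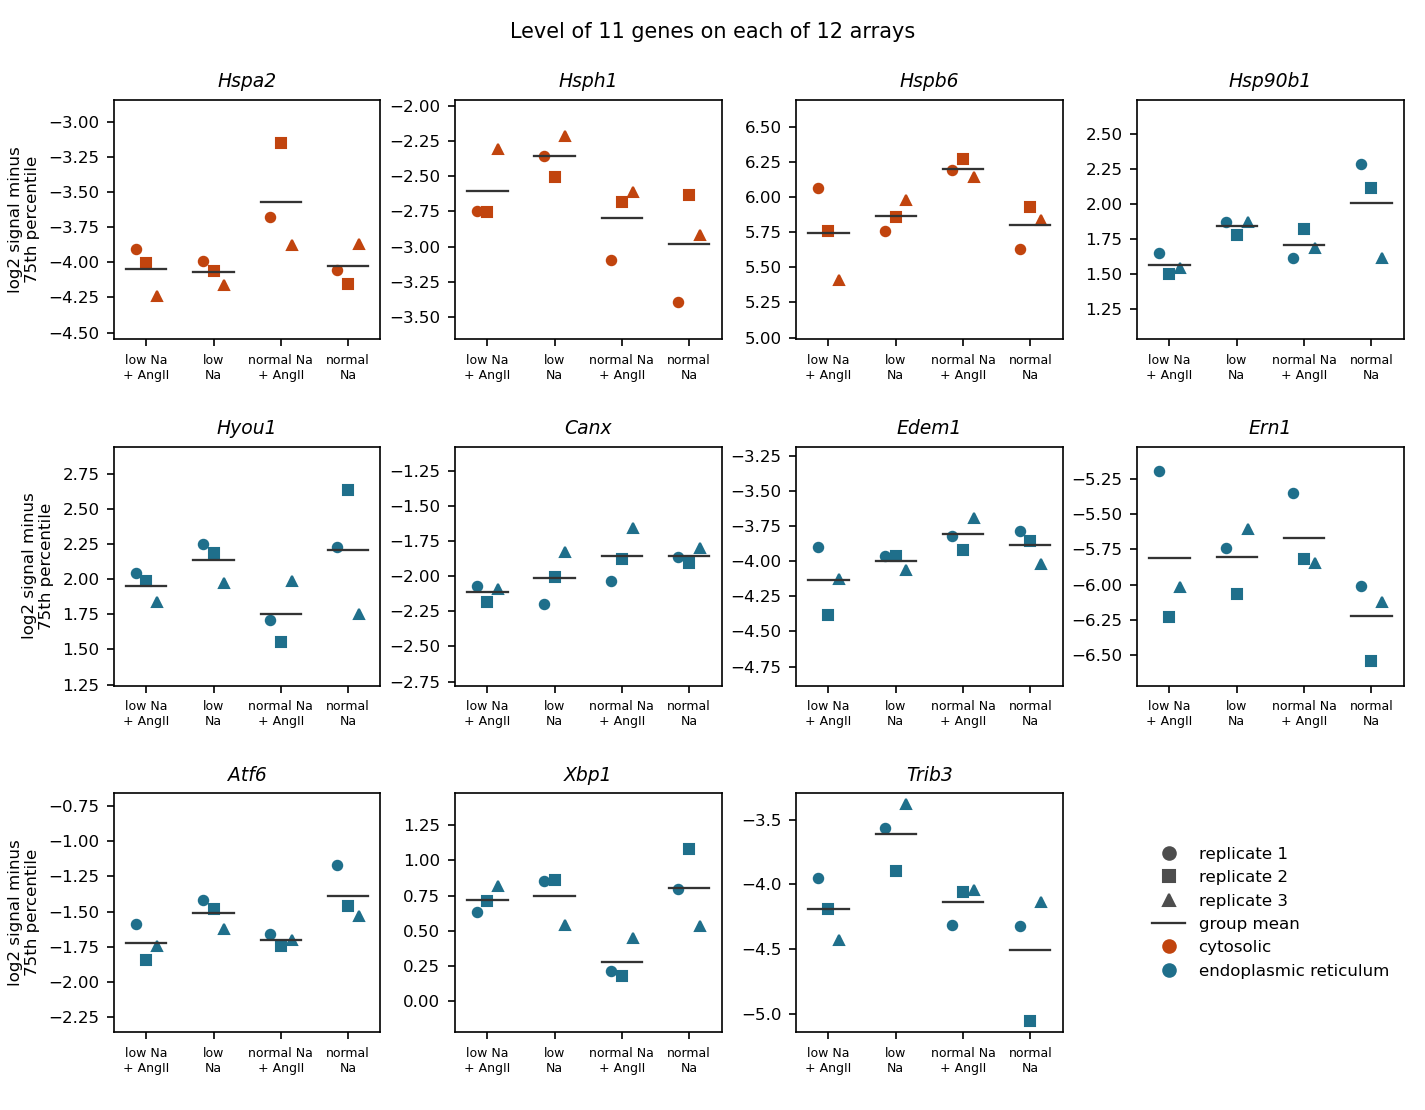
Log2 signal minus the array's 75th percentile (vertical axis, each panel on its own scale) of 11 genes in the 4 groups, with 3 arrays a group marked by replicate and a bar at the group mean. Xbp1 is lowest in the 3 arrays of normal sodium with AngII, Trib3 is highest in the 3 arrays of low sodium, and Hspb6 is highest in the 3 arrays of normal sodium with AngII.

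The 95% intervals of the other lumenal members took in 0 in the AngII contrasts. Calr, the calcium-binding lectin chaperone, differed by -0.15 with AngII on low sodium and -0.02 on normal sodium. Pdia3, Pdia4 and Pdia6, the disulphide isomerases, differed by -0.12, -0.14 and -0.11 on low sodium and by -0.16, 0.48 and -0.35 on normal sodium. The Pdia4 value on normal sodium rested on 1 array and was -0.01 without normal sodium replicate 1. Pdia6 was at -0.19 without that array, and Pdia3 at -0.04 without normal sodium replicate 2. Hspa13 and Dnajb11, an Hsp70 relative and an Hspa5 cochaperone, differed by -0.09 and -0.04 on low sodium and -0.10 and -0.24 on normal sodium. Without normal sodium replicate 2 the normal sodium values were -0.02 and -0.14. Creld2, a secreted target of Atf6, differed by -0.22 and 0.04, and Dnajc3, which binds unfolded protein in the lumen, by -0.14 and -0.17. On normal sodium Creld2 was at -0.27 without replicate 1 and 0.32 without replicate 2 of that group, and Dnajc3 at -0.06 without replicate 2.

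Canx, the membrane-bound partner of Calr, and Edem1, which marks misfolded glycoproteins for degradation, had lower mean levels on low sodium than on normal sodium. Without AngII their arrays overlapped between the diets. The mean low sodium difference had an unadjusted limma p under 0.05 in 5 of 19 alternatives for Canx and in 6 for Edem1. Canx stood at -2.07, -2.19 and -2.10 in low sodium with AngII, -2.20, -2.01 and -1.83 in low sodium, -2.03, -1.88 and -1.66 in normal sodium with AngII, and -1.86, -1.90 and -1.80 in normal sodium. Its mean low sodium difference was -0.21 ± 0.09 (SE, adjusted p = 0.380). Edem1 stood at -3.90, -4.38 and -4.13 in low sodium with AngII, -3.96, -3.96 and -4.06 in low sodium, -3.82, -3.92 and -3.69 in normal sodium with AngII, and -3.78, -3.85 and -4.02 in normal sodium. Under AngII it lay 0.33 below normal sodium, with 1 array overlapping (adjusted p = 0.419). Fitted to the authors' deposited values that Edem1 difference was 0.00, and after quantile normalisation it was -0.20. Herpud1 and Sel1l, both parts of the degradation machinery, differed by -0.08 and -0.24 between the diets under AngII. The brightest Sel1l probe and a second one both lay higher with AngII on normal sodium, at 0.31 and 0.41.

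Of the cytosolic Hsp70 and Hsp90 machinery, the nucleotide exchange factor Hsph1 (Hsp110) differed most between the diets. It stood at -2.75, -2.75 and -2.31 in low sodium with AngII, -2.35, -2.51 and -2.22 in low sodium, -3.10, -2.68 and -2.61 in normal sodium with AngII, and -3.40, -2.63 and -2.92 in normal sodium. The uninfused low sodium arrays all lay above the uninfused normal sodium arrays. That difference was 0.62 ± 0.21 (SE), 1.54-fold (adjusted p = 0.630), and 0.41 without normal sodium replicate 1. Averaged over AngII it was 0.41 (adjusted p = 0.302). Hsph1 and Trib3 were the members with an unadjusted p under 0.05 for low against normal sodium without AngII, both higher, against 2.87% of all probes. No member was lower, against 4.16%. Groups did not overlap for Hsp90ab1, Hsph1 and Trib3, higher, against 5.03% of probes, and for no member in the lower direction, against 5.89%.

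Apart from Hspa2, described below, the 95% intervals of the other members of that machinery took in 0 in the 4 pairwise contrasts. Hspa8, the constitutive Hsp70, lay between -0.17 and -0.06 in the 4 pairwise contrasts. For AngII on normal sodium its 3 dimmer probes lay between -0.01 and 0.19, against -0.07 for the brightest. Hspa4, another Hsp110 relative, lay between -0.06 and 0.27, and the highest of these, for low sodium without AngII, was 0.04 without normal sodium replicate 1. Hsp90aa1 and Hsp90ab1, the inducible and constitutive cytosolic Hsp90, differed by -0.11 and -0.19 with AngII on low sodium and by -0.22 and 0.06 on normal sodium. A second Hsp90ab1 probe gave -0.21 for AngII on normal sodium. For low sodium without AngII it gave -0.16, against 0.13 for the brightest, so the direction differed between the probes in both contrasts. Dnaja1, an Hsp70 cochaperone, differed by -0.01 and -0.28 in the same contrasts. Hsf1, the factor that drives the cytosolic response, differed by -0.17 and -0.01.

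Hspa2, an Hsp70 best known from testis, was dim here. It stood at -3.91, -4.00 and -4.24 in low sodium with AngII, -3.99, -4.07 and -4.16 in low sodium, -3.68, -3.15 and -3.87 in normal sodium with AngII, and -4.06, -4.15 and -3.87 in normal sodium. The AngII difference on normal sodium was 0.46 (adjusted p = 0.669), and 0.25 without replicate 2 of the infused group. It was 0.24 in the authors' deposited values and 0.20 after normexp background correction. Low sodium with AngII lay below normal sodium with AngII by 0.48 (adjusted p = 0.376), or by 0.27 without that array.

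Hspb6 (Hsp20), a small heat shock protein of muscle that is phosphorylated downstream of cyclic AMP, also lay highest in normal sodium with AngII. It stood at 6.07, 5.76 and 5.41 in low sodium with AngII, 5.76, 5.86 and 5.98 in low sodium, 6.19, 6.27 and 6.14 in normal sodium with AngII, and 5.63, 5.93 and 5.84 in normal sodium. The 3 arrays of normal sodium with AngII lay above all others. AngII on normal sodium gave 0.40 ± 0.16 (SE), 1.32-fold (adjusted p = 0.669), positive on all 3 slides. Low sodium lay below normal sodium under AngII by 0.46 (adjusted p = 0.358), and by 0.29 without replicate 3 of low sodium with AngII. In the authors' deposited values the normal sodium difference was 0.26, and after normexp correction 0.22. For the difference between the 2 AngII effects, Hspb6 (-0.52) and Trib3 (-0.95) were lower at an unadjusted p under 0.05, against 2.96% of all probes, and Xbp1 (0.49) higher, against 2.1%. With slide as a block Trib3 alone of these 3 was left at that threshold.

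The intervals of the other small heat shock proteins also took in 0 in those contrasts. Cryab, the abundant alpha B crystallin of heart muscle, lay between -0.07 and 0.05 in the 4 pairwise contrasts. Hspb7, a cardiac small heat shock protein, lay between 0.10 and 0.24, above 0 in each. Hspb1 (Hsp27), which protects actin, lay between -0.26 and -0.17, below 0 in each, with intervals reaching up to 0.56 to either side. Bag3, which pairs with Hspb8 in clearing damaged sarcomere protein, lay between -0.15 and -0.07, and Hspb8 between -0.22 and 0.12. The mitochondrial pair Hspd1 and Hspe1, the chamber and its lid, differed by -0.11 and -0.20 with AngII on normal sodium and by 0.09 and 0.24 between low and normal sodium under AngII. A second Hspe1 probe gave 0.02 and 0.16 in those contrasts.

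Between low and normal sodium under AngII the members went both ways. Hspa2, Hspb6 and Edem1 were lower at an unadjusted p under 0.05, against 7.41% of all probes, and Xbp1 higher, against 3.7%. Groups did not overlap for Hspd1, Hspe1 and Xbp1, higher, against 9.92% of probes, and for Hspa2, Hspb6, Hspb8, Canx and Creld2, lower, against 12.3%. The shares of members were near those backgrounds or below them. Averaged over AngII, Hsph1 and Trib3 were higher on low sodium, against 4.06% of all probes, and Canx and Edem1 lower, against 8.47%.

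Wider gene lists of the same pathways, none of them members, were measured beside them. Of 25 tested cytosolic chaperone genes outside the members, 21 lay above 0 for low against normal sodium under AngII, with a median of 0.17 against -0.05 for all probes, while the member cytosolic genes had a median of -0.10. Among them Chordc1, an Hsp90 cochaperone, was 0.40 higher (adjusted p = 0.305). In the AngII contrast on normal sodium 5 of the 25 had an unadjusted p under 0.05, all lower, where 3.02% of all probes were lower. The 3 with the smallest p were Hspa14 (-0.46), Chordc1 (-0.35) and Cdc37 (-0.40), which delivers kinases to Hsp90. Hspa14 was at -0.29 without normal sodium replicate 1. On that array Cdc37 stood at 5.48, against 5.21 and 4.97 on the other normal sodium arrays. The count of 5 is not given without that array, so how far it rests on it is not known here. The arrays of normal sodium with AngII enter both contrasts. Of 23 tested endoplasmic reticulum genes outside the members, 13 lay below 0 for AngII on normal sodium, and Sdf2l1, an Hspa5 cofactor, was -0.68 (adjusted p = 0.669), and -0.45 without normal sodium replicate 2. Under AngII, 6 of these 23 had an unadjusted p under 0.05 between the diets, and 5 of the 6 were lower on low sodium, where 7.41% of all probes were lower. Among them were Uggt1 (-0.80), which senses misfolded glycoproteins and was well above background on 8 of 12 arrays, and Serpinh1 (-0.57), the collagen chaperone. A probe was tested if all arrays of any single group were well above background. Uggt1 can have passed through the group where it was high, so it adds no support to that count.

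Genes of the integrated stress response, the branch that runs through Atf4, went both ways between the diets. Of 21 tested genes outside the members, 9 lay above 0 and 12 below 0 for low against normal sodium without AngII. Against 2.87% of all probes, 3 of the 21 were higher at an unadjusted p under 0.05. They were Ddit4, an inhibitor of mTOR signalling, at 0.83 (adjusted p = 0.615), Slc7a5, an amino acid transporter well above background on 8 of 12 arrays, at 0.62, and Cebpb, a transcription factor, at 0.52. Slc7a5 can likewise have passed the filter on dim probes through the group where it was high, and adds no support to that count. Phgdh, the first enzyme of serine synthesis, was at -0.42, and was the only 1 of the 21 lower at an unadjusted p under 0.05, against 4.16% of all probes. Of 9 tested mitochondrial protein quality genes, 6 lay above 0 in that contrast, among them the proteases Lonp1 (0.28) and Yme1l1 (0.42). Yme1l1 was at 0.16 without normal sodium replicate 1.

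Markers of other cells were measured in the same arrays, as the sum over a list of signal relative to each array's 75th percentile. All 7 ventricular cardiomyocyte markers were well above background on 12 arrays. Their sum lay between 1000 and 1266 in low sodium with AngII, 1101 and 1254 in low sodium, 1197 and 1305 in normal sodium with AngII, and 1053 and 1362 in normal sodium. The 2 red cell markers tested stood at 65.9 to 79.2 in low sodium with AngII, 92.0 to 109.9 in normal sodium with AngII, and 51.9 to 67.6 in normal sodium. The normal sodium AngII arrays overlapped neither of the other groups. The 3 smooth muscle markers stood at 3.64 to 6.08 in normal sodium with AngII, against 2.46 to 3.60 in normal sodium, also without overlap. The 4 macrophage markers stood at 0.76 to 0.80 in low sodium with AngII, against 1.09 to 1.23 in normal sodium with AngII. The 4 fibroblast markers stood at 25.6 to 30.6, against 30.8 to 33.4, in those 2 groups. All markers tested of these 4 lists were well above background on every array, and their part in the values of Xbp1, Hspb6, Hspa2, Hyou1, Atf6 and Edem1 was not tested. Between low and normal sodium without AngII the smooth muscle sum was 4.09 to 4.79 against 2.46 to 3.60, the macrophage sum 0.58 to 0.89 against 0.94 to 1.17, and the fibroblast sum 25.3 to 28.6 against 30.4 to 33.9. The 2 T cell markers tested summed to 0.0745 to 0.10 against 0.107 to 0.164 in the same 2 groups, and to 0.0999 to 0.104 in normal sodium with AngII, which did not overlap normal sodium. The adipocyte marker tested, Cfd, stood at 0.85 to 1.02 in low sodium with AngII, against 1.18 to 1.35 in normal sodium with AngII, without overlap. The part of these lists in the values of Trib3 and Hsph1, and of the members named above, was not tested. With AngII on low sodium all 4 sums overlapped between the groups. The 3 atrial, 4 endothelial, 2 neutrophil, 3 plasma and B cell and 2 skeletal muscle markers had sums that overlapped between all 4 groups. A sum follows its brightest marker, so endothelial and atrial markers are also given by gene. Under AngII all 4 endothelial markers were lower on low sodium (median log2 difference -0.24), and all 3 atrial markers were higher (0.98). Without AngII all 4 endothelial markers were lower (-0.25), and 2 of 3 atrial markers were higher (0.85). Their part in the members' values was not tested. Cd3e of T cells was well above background on 3 arrays and Adipoq of adipocytes on 1.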

How the data were processed

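RNA of left ventricle was labelled with Cy3 and hybridised to 12 Agilent arrays, per the labels' protocols. The arrays were scanned and read with Agilent Feature Extraction, version 10.7.3.1 per the file headers, while the submitters' processing notes name version 11.0.1.1 beside R 3.3.04 and limma. The deposited intensity is the processed signal of each spot, background-subtracted per the file headers. The deposited flags for background, saturation and outliers are whole numbers without a unit. The authors' series table holds log2 values per probe, set here against the spot signals (Spearman rho of 0.996 to 0.999 per array). Its medians ran from 8.81 to 8.95, and its normalisation is not given in the sources used here.

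Control spots and outlier flags were removed and repeated spots of a probe averaged. Log2 signal minus each array's 75th percentile over non-control probes was tested with limma 3.58.1 (R 4.3.3) in 1 model of the 4 group means, with 20020 of 30367 probes tested after a filter on dim probes. A probe passed if all arrays of any single group were well above background. Genes dim on some arrays, such as Uggt1, Slc7a5 and Ern1, can therefore have passed through the group where they were high. Probes were named through RefSeq accessions (18758 matched). The 41 genes, the pathway lists and the rule for naming members were chosen with earlier results of these data known. Per-array values are given for members with an unadjusted p under 0.05 or among the 3 smallest p of a contrast, and for Hspa5, which was added outside that rule after its values were seen. At most 3 genes per pathway list and contrast are named, by smallest p under that threshold. Phgdh was named beyond that number for low sodium without AngII, and Tcp1 and Ahsa1 for AngII on normal sodium. The procedure was run on simulated data with independent noise on every array and no slide effect. That run therefore does not cover the shared deviations of same-numbered arrays described next.

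Same-numbered arrays, which the file headers place on 1 slide, deviated together: the correlation of their deviations from group means was 0.0469 to 0.432, over 0.1 in 17 of 18 pairs, against a median of -0.181 between different numbers. Slide was therefore run as a block, and differences within each slide are given.

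The 19 alternative settings were the replicate block, array weights, no filter on dim probes, quantile normalisation, normexp background correction with an offset of 50, the authors' values, the mean of a gene's probes, and leaving out each array. The files used hold no mean spot signal, so normexp ran on median signals. The number of arrays limits the precision.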

Additional observations from a re-analysis of the deposited data

Results flagged for a closer look

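The 3 results here are members that moved one way on every slide in one condition and the opposite way on every slide in the other. For AngII on low sodium minus AngII on normal sodium this held for Trib3, at -0.95 (adjusted p = 0.857, limma interaction), and for Hspb8, at -0.25 (adjusted p = 0.859). Trib3 differed by -0.39, -0.29 and -1.05 with AngII on low sodium on slides 1, 2 and 3, and by 0.01, 1.01 and 0.09 on normal sodium. Hspb8, the small heat shock protein that works with Bag3, differed by -0.02, -0.18 and -0.20 on low sodium and by 0.04, 0.29 and 0.04 on normal sodium. Among all probes 2.87% showed such opposite directions, against 2 of 39 members (5.13%).

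For low sodium under AngII minus low sodium without AngII, Hsp90ab1 was at -0.25 (adjusted p = 0.859). It differed by -0.01, -0.26 and -0.10 between the diets under AngII, and by 0.22, 0.01 and 0.15 without AngII. A second Hsp90ab1 probe gave 0.03 for this difference of effects, with -0.13 between the diets under AngII and -0.16 without AngII. Such directions were seen in 3.94% of all probes, against 1 of 39 members (2.56%).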

How the results depend on the processing

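No member had an adjusted p under 0.05 in any contrast under any of the 19 alternative settings. Over all probes, 0 passed in the main fit, and the cause of the passes below was not tested. AngII on normal sodium gave 5 probes with the authors' values, 6 after normexp and 0 to 9 with single arrays left out. Low sodium under AngII gave 8 with array weights, 2 with the authors' values, 3 after normexp, 1 after quantile normalisation and 0 to 3 with arrays left out. The mean low sodium effect gave 81 with array weights, 1 with no filter on dim probes, 4 after normexp and 0 to 20 with arrays left out. Low sodium without AngII gave 0 to 1 with arrays left out. The replicate block left all these counts at 0.

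The median difference over the members ranged from -0.0993 to 0.0337 with arrays left out for AngII on normal sodium and from -0.0899 to 0.0561 for low sodium without AngII, where it was -0.10 after normexp. By slide it was 0.0537 on slide 3 for AngII on normal sodium, and -0.104 on slide 2 for low sodium without AngII. Under AngII the low sodium median was 0.0375 on slide 1 and -0.159 on slide 2, its mean over AngII 0.0398 and -0.181, and the interaction median 0.0587 on slide 1 and -0.229 on slide 3.

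The cytosolic minus endoplasmic reticulum median moved by slide: for AngII on normal sodium 0.319 (slide 2) and -0.104 (slide 3), and on low sodium 0.180 (slide 3). For low sodium without AngII it was 0.278 (slide 2), -0.209 (slide 3), and -0.0461 to 0.158 with arrays left out. Under AngII it was -0.154 (slide 2) and 0.113 (slide 3). It was 0.187 (slide 2) for the mean AngII effect, 0.0736 (slide 2) for the mean low sodium effect, and -0.158, -0.468 and 0.336 on slides 1, 2 and 3 for the interaction. Of 574 alternative values of these results, 530 kept within the limits set by the replicate spread or a count within 1.5 times, and 44 did not.

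With slide as a replicate block, members of the interaction contrast with an unadjusted p under 0.05 numbered 1 in place of 3. Single arrays moved every such count. With arrays left out it was 1 to 10 for AngII on normal sodium (5 with all arrays), 0 to 2 for AngII on low sodium (1), 1 to 5 for low sodium without AngII (2), and 0 to 5 for low sodium under AngII (4). It was 1 to 7 for the mean AngII effect (4), 1 to 6 for the mean low sodium effect (4) and 1 to 4 for the interaction (3). Array weights gave 3, 5 and 7 for AngII on normal sodium, AngII on low sodium and low sodium under AngII. The authors' values gave 3 for AngII on normal sodium and 4 for low sodium without AngII. Normexp and quantile normalisation each gave 2 for low sodium under AngII, quantile normalisation and no filter on dim probes each gave 2 for the mean low sodium effect, and no filter gave 1 for the interaction. Ern1 was well above background on 10 arrays, and other members on all 12.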
